A study of Mus musculus with 8 samples.

Results

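The mRNA of 10 amino acid transporter genes was compared between mouse small intestinal adenomas and wild-type small intestine. They were taken by symbol from a table of 39179 genes, as 5 growth-linked genes (Slc7a5, Slc3a2, Slc1a5, Slc38a1, Slc38a2) and 5 absorptive genes (Slc6a19, Slc6a20a, Slc7a9, Slc3a1, Slc7a8). All 10 were present and all 10 passed the filter on low counts. The adenomas (n = 5) came from VilCreER+ APCfl/+ mice, which the series text describes as aged, and the wild-type small intestine (n = 3) came from VilCreER+ mice whose age is not given. VilCreER is a Cre recombinase that tamoxifen activates and that the villin promoter drives in intestinal epithelium, so the controls carry the recombinase too. The genotype alone does not show which mice received tamoxifen. The floxed allele is 1 of the 2 copies of Apc, a brake on Wnt signalling, and both groups share the inbred C57BL6/J background. RNA from whole tissue was read as paired ends of 36 cycles, and the question is how transporter expression in adenomas differs from that of the tissue they grow in.

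Cells take up amino acids through membrane carriers of the solute carrier families. In proliferating cells, Slc1a5, Slc38a1 and Slc38a2 bring in glutamine and other small neutral amino acids, and the exchanger Slc7a5 uses intracellular glutamine to import leucine and other large neutral amino acids, which activate the growth kinase complex mTORC1. In absorptive enterocytes, Slc6a19, Slc6a20a and the Slc7a9 and Slc3a1 pair take amino acids from the lumen across the brush border, and Slc7a8 helps to pass neutral amino acids to the blood across the basolateral membrane. Slc3a2 is a heavy chain that carries several light chains to the membrane, so it serves Slc7a5 as well as the basolateral Slc7a7 and Slc7a8.

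The libraries held 18040301 to 28343915 counts, and whether each is from its own mouse is not labelled, so the p-values reflect the spread among libraries, which may be technical. Adenoma 2 stood apart: the hindgut homeobox gene Hoxb13 was at 245.5 CPM (counts scaled to library size) there and reached no more than 0.894 CPM elsewhere, and Gata4, which marks the proximal small intestine, had 0.470 CPM there, 68.4 to 84.4 CPM in the other adenomas and 86.9 to 101 CPM in wild type. These values go against its label of small intestine, and the fold changes of the 10 transporters and the list counts are given with and without it. The 8 enterocyte marker genes on a fixed list summed to 400.2 CPM in adenoma 2, to 7605 to 14268 CPM in the other adenomas and to 19759 to 32014 CPM in wild type. The 9 epithelial marker genes summed to 5430 to 9052 CPM in the adenomas and to 4367 to 4719 CPM in wild type, and the 6 fibroblast markers to 2669 to 3370 CPM and to 1082 to 1445 CPM in wild type. The 8 exocrine pancreas markers summed to 628 CPM in adenoma 5, to 13.7 to 28.3 CPM in the other adenomas, to 971 CPM in wild type 1 and to 43.5 and 53.9 CPM in the other wild-type libraries. Adenomas 2, 3, 4 and 5 had the female pattern of Xist and Y-linked genes, while adenoma 1 and the wild-type libraries had the male one. Apc, counted over the whole gene, was at 132 to 159 CPM in the adenomas and at 191 to 211 CPM in wild type.

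Of the 10 transporters, 3 rose and 5 fell in adenomas, against 30.3% higher, 27.8% lower and 58.1% either way of the 18345 genes tested (edgeR quasi-likelihood test with Benjamini-Hochberg adjustment over all genes, adjusted p below 0.05). Without adenoma 2 the counts were 3 and 6, with 6184 and 6092 over all genes. Without wild type 1 and adenoma 5, the libraries with pancreatic RNA, they were 2 and 2, with 4146 and 3798 over all genes. Among the growth-linked genes Slc7a5, Slc1a5 and Slc38a2 rose, Slc3a2 fell and Slc38a1 did not pass the test, with a median log2 fold change of 0.46. Among the absorptive genes Slc6a19, Slc6a20a, Slc3a1 and Slc7a8 fell and Slc7a9 did not pass, with a median of -2.32. The median over all genes tested was 0.04. All 5 absorptive genes had adenoma values that did not overlap with wild type, all lower, as had 27.6% of all genes tested, and 3 growth-linked genes were without overlap on the higher side, as had 29.3%, with 56.9% of all genes without overlap in either direction. Log2 fold changes are adenoma over wild type ± SE. In bulk tissue, fewer cells of a type and less RNA per cell cannot be told apart.

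**Figure D1:**
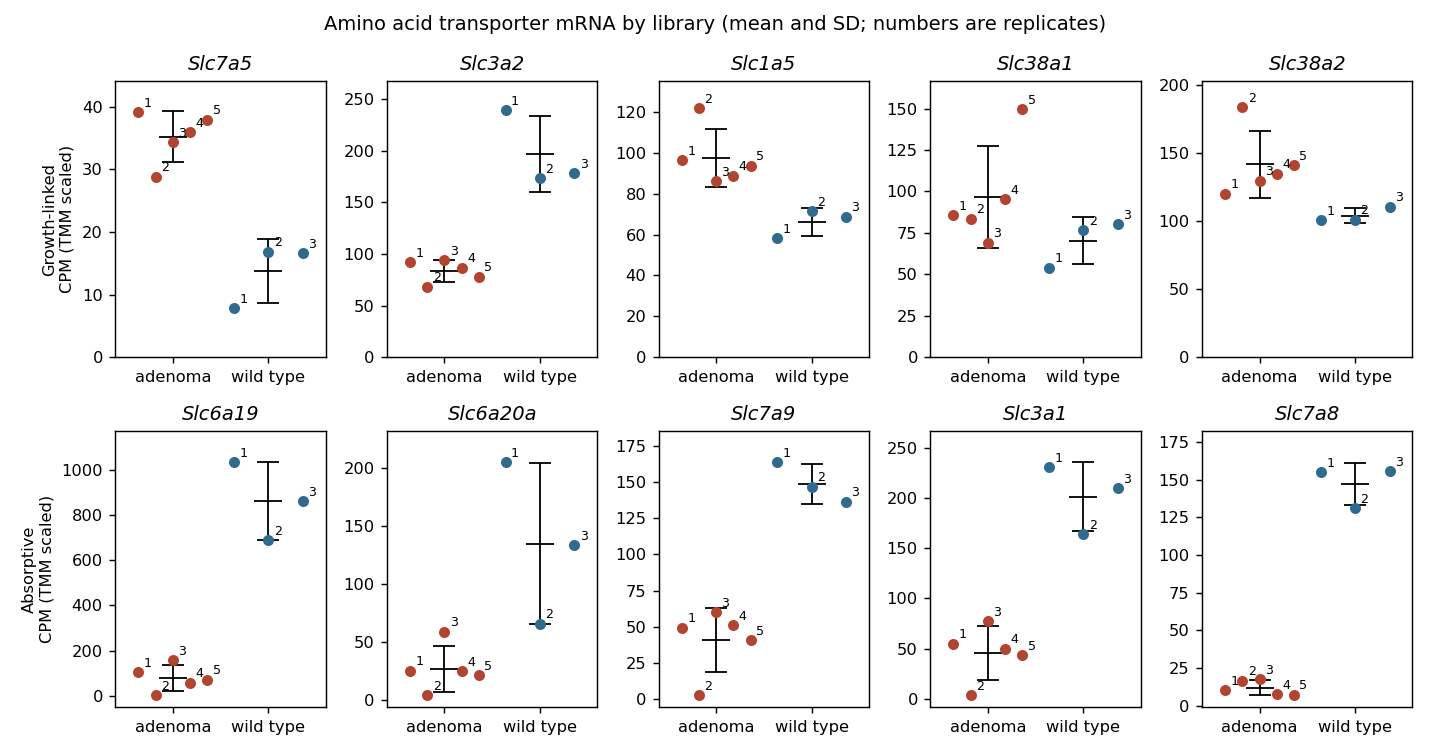
CPM of each transporter in every library, scaled by TMM, with adenomas left of wild type, the mean and SD as bars and replicate numbers beside the points; the upper row holds the growth-linked genes and the lower row the absorptive genes. All 5 absorptive genes lie lower in every adenoma than in any wild-type library, and Slc7a5 and Slc3a2 are without overlap in opposite directions.

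The sets differed in their summed levels. The 5 growth-linked genes together were at 414 to 500.1 CPM in the adenomas and at 439 to 460 CPM in wild type, so the sums overlapped, while the 5 absorptive genes together were at 28.5 to 370 CPM in the adenomas and at 1198 to 1791 CPM in wild type. Set by exon length, in CPM per kb of exon, the order of mean levels in the adenomas was Slc3a2 at 23.7, Slc1a5 at 23.3, Slc3a1 at 20.3, Slc38a2 at 16.1, Slc6a19 at 15.6, Slc7a9 at 15.2, Slc7a5 at 9.51, Slc6a20a at 6.60, Slc38a1 at 5.60 and Slc7a8 at 2.38. Neighbours in that order had overlapping library values except Slc38a1 and Slc7a8. Without adenoma 2 the mean of Slc3a1 was 24.9, that of Slc3a2 24.8 and that of Slc6a19 19.4. In wild type the order ran Slc6a19 at 172, Slc3a1 at 88.7, Slc3a2 at 55.8, Slc7a9 at 55.7, Slc6a20a at 33.1, Slc7a8 at 29.4, Slc1a5 at 15.9, Slc38a2 at 11.8, Slc38a1 at 4.08 and Slc7a5 at 3.70. There the neighbours Slc3a2 and Slc7a9, Slc6a20a and Slc7a8, and Slc38a1 and Slc7a5 overlapped. Slc7a8 thus had the lowest mean level of the 10 in adenomas, and Slc7a5 the lowest in wild type. The exons of Slc38a1 add up to 17236 bases over all its annotated transcripts, against 2271 to 8838 bases for the others, and exons that are not used in this tissue would lower its level per kb; exon use was not measured.

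Slc7a5 (ENSMUSG00000040010, GRCm38 chromosome 8, 121881150 to 121907694, minus strand), the light chain that exchanges leucine and other large neutral amino acids, had 39.2, 28.8, 34.4, 35.97 and 37.9 CPM in adenomas 1 to 5, against 7.79, 16.8 and 16.6 CPM in wild type 1 to 3. Every adenoma lay above every wild-type library, and wild type 1 was the lowest by far. Slc7a5 rose by a log2 fold change of 1.36 ± 0.25 (edgeR adjusted p = 0.00179), and without adenoma 2 it was 1.42.

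Slc3a2 (ENSMUSG00000010095, chromosome 19, 8706882 to 8723369, minus strand), the heavy chain that Slc7a5 needs at the membrane, went the other way. It had 92.0, 68.4, 94.2, 86.5 and 77.8 CPM in adenomas 1 to 5, against 239, 173 and 179 CPM in wild type 1 to 3. The lowest wild-type library lay well above the highest adenoma. Slc3a2 fell by a log2 fold change of -1.23 ± 0.14 (edgeR adjusted p = 0.000189), and without adenoma 2 it was -1.18.

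Slc1a5 (ENSMUSG00000001918, chromosome 7, 16781340 to 16798274, plus strand), a sodium-dependent exchanger of glutamine and other small neutral amino acids, had 96.5, 122, 86.0, 88.9 and 93.6 CPM in adenomas 1 to 5, against 58.3, 71.5 and 68.7 CPM in wild type 1 to 3. The groups did not overlap, and adenoma 2 was the highest library. Slc1a5 rose by a log2 fold change of 0.56 ± 0.13 (edgeR adjusted p = 0.00646), or 0.46 without adenoma 2.

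Slc38a1 and Slc38a2 are sodium-coupled carriers that concentrate glutamine in cells and lie next to each other on chromosome 15, both on the minus strand. Slc38a2 (ENSMUSG00000022462, 96687392 to 96699730) had 120.2, 184, 129.8, 135 and 141 CPM in adenomas 1 to 5, against 101, 101 and 111 CPM in wild type 1 to 3. The groups did not overlap, although adenoma 1 lay close to wild type 3 and adenoma 2 was again the highest. Slc38a2 rose by a log2 fold change of 0.45 ± 0.14 (edgeR adjusted p = 0.0232), or 0.33 without adenoma 2, and it missed the threshold without wild type 1 (adjusted p = 0.0693) and without wild type 2 (0.0686). Slc38a1 (ENSMUSG00000023169, 96571418 to 96642913) had 85.6, 83.4, 69.2, 95.2 and 149 CPM in adenomas 1 to 5, against 53.9, 76.5 and 80.3 CPM in wild type 1 to 3. Adenoma 5 alone was far above the rest, adenoma 3 lay among the wild-type values, and the difference of 0.46 ± 0.25 on the log2 scale did not pass the test (edgeR adjusted p = 0.147), nor did it without adenoma 2, at 0.50 (adjusted p = 0.157). The Slc38a1 to Slc38a2 count ratio differed by 0.00 between the groups on the log2 scale, at -0.59 ± 0.47 in adenomas and -0.59 ± 0.27 in wild type (SD, n = 5 and n = 3; exact two-sided permutation p = 0.857), and the 5 single adenoma ratios ran from 0.454 to 1.06.

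The rises of Slc1a5 and Slc38a2 depended on how libraries were scaled. The 9 epithelial markers summed higher in adenomas, but they did not move alike. Of them 66.7% were called higher and 11.1% lower, against 30.3% and 27.8% of all genes. Krt18 was at 2.54 on the log2 scale, Cdh1 at 0.11 and Spint1 at -0.35. Whether their sum follows epithelial content was not tested. When each library was scaled so that those 9 genes had the same sum, the log2 fold changes of all genes had a median of -0.69. On that scale Slc1a5 was at -0.14, Slc38a1 at -0.27 and Slc38a2 at -0.24, each reversed in sign with adjusted p of 0.666, 0.469 and 0.473, and Slc7a5 was at 0.59 (adjusted p = 0.0903). All 4 lay above the median of all genes on both scales. A change of scaling shifts all genes nearly alike, so this was close to fixed in advance. Slc3a2 and the absorptive genes were lower on both, and with the epithelial scaling Slc7a9 passed too, at -2.75 (adjusted p = 0.00678).

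**Figure D2:**
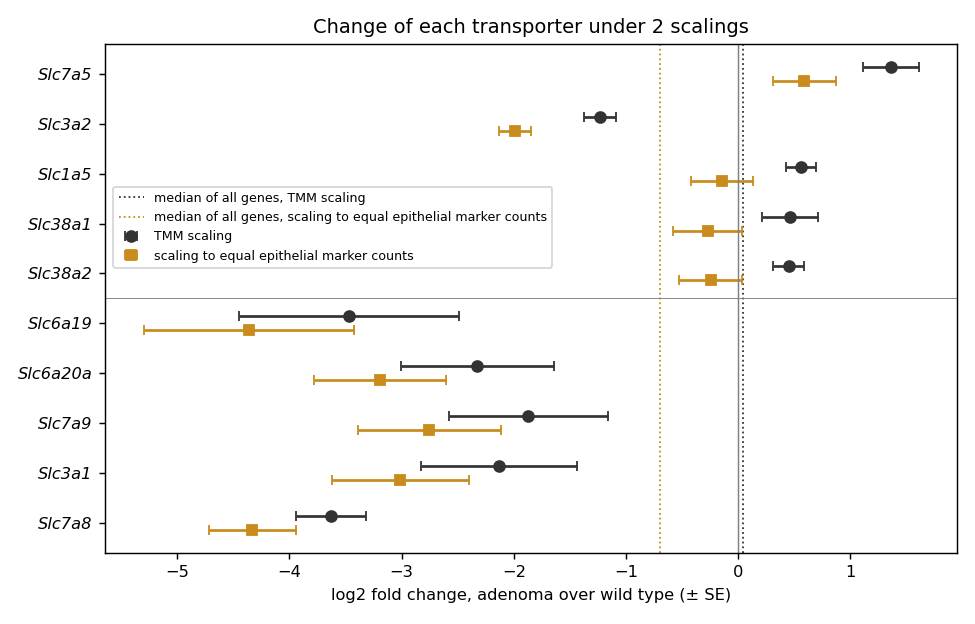
Log2 fold change of each transporter, adenoma over wild type ± SE, with TMM scaling (circles) and with libraries scaled to equal epithelial marker counts (squares); dotted lines give the median of all genes under each, 0.04 and -0.69. Slc1a5, Slc38a1 and Slc38a2 change sign between the scalings, while Slc3a2 and the 5 absorptive genes stay on the lower side.

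Heavy and light chains were then set against each other within each library, where library scaling cancels. The Slc7a5 to Slc3a2 count ratio was 0.426, 0.422, 0.365, 0.416 and 0.488 in adenomas 1 to 5, against 0.0327, 0.0973 and 0.0930 in wild type 1 to 3. The log2 ratios averaged -1.25 ± 0.15 in adenomas and -3.91 ± 0.89 in wild type (SD, n = 5 and n = 3), a difference of 2.66. The Slc7a8 to Slc3a2 ratio moved the other way, with 0.113, 0.243, 0.188, 0.0872 and 0.0955 in adenomas 1 to 5, against 0.648, 0.757 and 0.872 in wild type 1 to 3, a log2 difference of -2.49. The Slc7a5 to Slc7a8 ratio was 1.73 to 5.11 in adenomas and 0.0504 to 0.129 in wild type, a log2 difference of 5.15. Each of these ratios was without overlap between the groups, with an exact two-sided permutation p = 0.0357, the smallest that 5 against 3 libraries can give, and a Benjamini-Hochberg value of 0.0536 over the 6 ratios tested, which misses 0.05. With 1 library left out, the log2 differences of these 3 ratios, in that order, were 2.15 to 2.93, -2.71 to -2.34 and 4.75 to 5.42. Their direction could not change, since the groups did not overlap.

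All the light chains that pair with Slc3a2 can be added up per kb of exon. Their sum was 32.3 to 48.3 CPM per kb in adenomas and 79.2 to 98.7 CPM per kb in wild type, while Slc3a2 itself was at 19.4 to 26.7 CPM per kb in adenomas and 49.1 to 67.8 CPM per kb in wild type. Slc3a2 over the light chain sum was 0.544 to 0.600 in adenomas and 0.568 to 0.687 in wild type, so this ratio overlapped between the groups. Shares of the sum did not overlap when chains were taken in pairs. The basolateral chains Slc7a7 and Slc7a8 together made up 38.8% to 65.3% of it in adenomas and 90.5% to 93.9% in wild type. Slc7a5 and Slc7a6 together made up 33.3% to 45.3% in adenomas and 5.19% to 9.04% in wild type. The share of Slc7a7 alone overlapped, at 28.5% to 57.99% in adenomas, lowest in adenoma 2, and 56.03% to 62.5% in wild type.

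Slc7a8 alone accounted for 3.43% to 10.3% of the light chain sum in adenomas and 31.4% to 34.9% in wild type. Slc7a7, which exports cationic amino acids and whose loss causes lysinuric protein intolerance in humans, was at 70.6 ± 25.5 CPM in adenomas and 174 ± 27.8 CPM in wild type (log2 fold change -1.30 ± 0.32, edgeR adjusted p = 0.00827). Slc7a6, a close relative of Slc7a7, was at 30.4 ± 2.13 CPM in adenomas and 13.6 ± 1.52 CPM in wild type (1.16 ± 0.11, adjusted p = 7.57e-05). Slc7a11, the cystine and glutamate exchanger, had 30.4, 84.4, 8.94, 13.0 and 14.7 CPM in adenomas 1 to 5, against 11.2, 4.51 and 3.71 CPM in wild type 1 to 3, and did not pass the test (adjusted p = 0.0576). Adenoma 2 was by far the highest for Slc7a11, and adenoma 3 lay below wild type 1. Slc7a10 was at most 0.164 CPM in any library and was not tested. Slc7a6, Slc7a7, Slc7a10 and Slc7a11 are described because they share the heavy chain, and were chosen after values were seen.

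**Figure D3:**
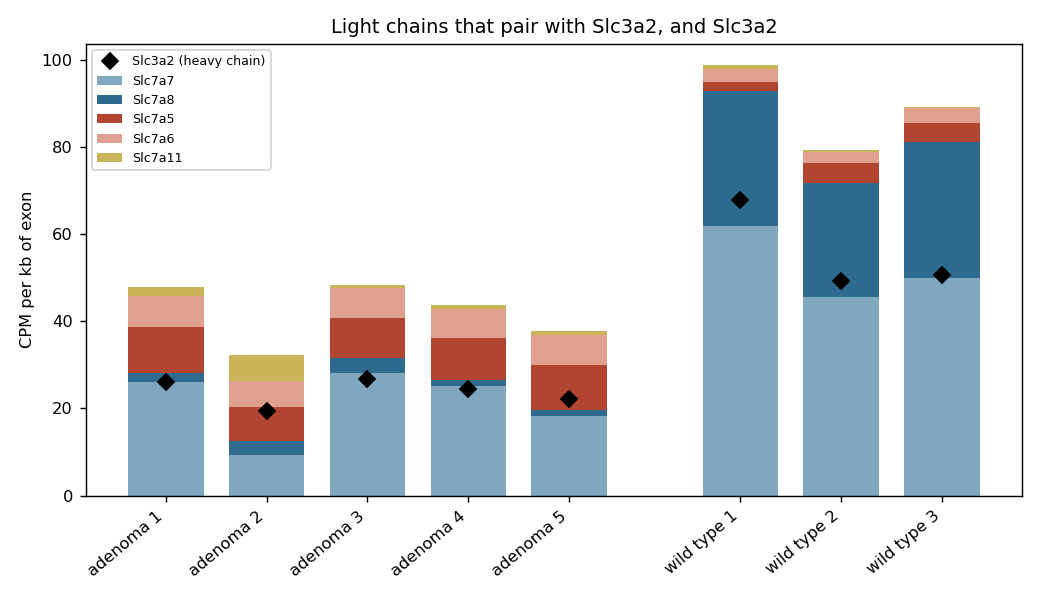
Stacked bars give the light chains that pair with Slc3a2 in CPM per kb of exon, by library, with adenomas left of wild type, and diamonds give Slc3a2 on the same scale. The light chain sum is 32.3 to 48.3 in adenomas and 79.2 to 98.7 in wild type, with Slc7a7 and Slc7a8 filling most of the wild-type bars.

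Among the absorptive genes, promoter sequences from RefSeq (GRCm38.p6) are shown for Slc6a19, Slc6a20a and Slc3a1, the brush border genes that were called lower. Slc7a9, a brush border gene that did not pass the test, is not shown. Each is the 250 bases before the RefSeq start, 5′ to 3′ on the gene's strand. The start used for Slc6a19 lies inside the gene model that was counted. Capitals mark AAGTCCA, a core of sites for the enterocyte factors Hnf4a and Hnf4g.
Slc6a19, chr13:73692637-73692886, minus strand: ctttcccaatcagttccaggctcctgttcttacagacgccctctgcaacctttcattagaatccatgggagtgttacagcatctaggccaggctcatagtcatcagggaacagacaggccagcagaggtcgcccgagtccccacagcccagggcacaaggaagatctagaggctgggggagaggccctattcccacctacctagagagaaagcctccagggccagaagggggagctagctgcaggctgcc
Slc6a20a, chr9:123678833-123679082, minus strand: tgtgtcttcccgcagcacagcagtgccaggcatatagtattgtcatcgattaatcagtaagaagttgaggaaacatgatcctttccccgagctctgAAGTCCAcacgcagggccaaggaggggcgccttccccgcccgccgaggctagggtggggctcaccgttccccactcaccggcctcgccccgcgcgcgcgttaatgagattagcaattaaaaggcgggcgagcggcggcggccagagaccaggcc
Slc3a1, chr17:85028097-85028346, plus strand: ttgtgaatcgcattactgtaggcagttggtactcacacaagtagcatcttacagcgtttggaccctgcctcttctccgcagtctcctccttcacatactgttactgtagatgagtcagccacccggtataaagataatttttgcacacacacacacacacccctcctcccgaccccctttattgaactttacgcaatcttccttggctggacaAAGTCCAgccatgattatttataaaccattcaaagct

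AAGTCCA stands 154 bases before the start of Slc6a20a and 37 bases before that of Slc3a1. The windows of Slc6a19, Slc7a9, Slc7a8, Slc3a2 and Slc38a2 do not hold it. Of 32851 promoter windows of the same length, 3.36% hold AAGTCCA on either strand. The E-box CACGTG (6.02% of windows), the amino acid response element TGATGNAA (3.45%) and the TCF core CTTTGAT (3.21%) were searched on both strands as well, and none was found in the windows of the 7 transporters that matched the table (Slc3a2, Slc38a2, Slc6a19, Slc6a20a, Slc7a9, Slc3a1, Slc7a8). A match describes the letters only. The windows of Slc3a2 and Slc7a9 lie inside the gene models that were counted, as does that of Slc6a19. That of Slc3a2 spans 8713898 to 8714147, while this minus-strand gene runs to 8723369. The sequence before the outer ends of these gene models was not searched. Slc7a5, Slc1a5 and Slc38a1 were not matched.

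Slc6a19 (ENSMUSG00000021565, chromosome 13, 73679745 to 73704865, minus strand) is the main sodium-coupled carrier of neutral amino acids in the brush border, and its loss causes Hartnup disorder in humans. It had 105, 1.41, 156, 57.2 and 70.5 CPM in adenomas 1 to 5, against 1037, 690.0 and 863 CPM in wild type 1 to 3. All adenomas were below wild type, and adenoma 2, with 30 counts, was nearly without it. Slc6a19 fell by a log2 fold change of -3.47 ± 0.98 (edgeR adjusted p = 0.0177), and without adenoma 2 by -3.16 (adjusted p = 0.00027).

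Slc6a20a (ENSMUSG00000036814, chromosome 9, 123634770 to 123678885, minus strand), which carries proline and other imino acids, had 25.4, 4.23, 58.9, 24.9 and 21.3 CPM in adenomas 1 to 5, against 205, 66.1 and 134 CPM in wild type 1 to 3. Wild type 2 lay only just above adenoma 3, so the groups were barely without overlap. Slc6a20a fell by a log2 fold change of -2.32 ± 0.69 (edgeR adjusted p = 0.0207), or -2.06 without adenoma 2 (adjusted p = 0.0160), and it missed the threshold without wild type 1 (adjusted p = 0.0781) or wild type 3 (0.0507). Of its 36-base words, 18.3% also occur in its paralog Slc6a20b and 12.1% in the antisense gene Gm17120, so part of its reads may not have been assigned to it. Slc6a20b, picked after its values were seen, at 1.25 ± 0.508 CPM in adenomas and 6.58 ± 2.68 CPM in wild type, was far less abundant and fell too (log2 fold change -2.39 ± 0.40, adjusted p = 0.0012).

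Slc7a9 and Slc3a1 are the light and heavy chains of the brush border exchanger for cystine and cationic amino acids, the one that fails in human cystinuria. Slc3a1 (ENSMUSG00000024131, chromosome 17, 85028376 to 85064236, plus strand) had 55.1, 3.62, 77.3, 50.2 and 43.8 CPM in adenomas 1 to 5, against 230.5, 164 and 210.0 CPM in wild type 1 to 3. Slc7a9 (ENSMUSG00000030492, chromosome 7, 35448796 to 35466036, plus strand) had 49.4, 2.58, 60.0, 50.8 and 40.8 CPM in adenomas 1 to 5, against 164, 147 and 136 CPM in wild type 1 to 3. For both genes every adenoma lay below wild type and adenoma 2 was by far the lowest. Slc3a1 fell by a log2 fold change of -2.13 ± 0.70 (edgeR adjusted p = 0.0309), while Slc7a9, at -1.87 ± 0.71, did not pass (adjusted p = 0.0524). Without adenoma 2 both passed, Slc3a1 at -1.84 (adjusted p = 0.000115) and Slc7a9 at -1.58 (adjusted p = 8.72e-06). The call of Slc3a1 was lost when any other library than adenoma 2 or adenoma 3 was left out, with adjusted p of 0.0525 to 0.078. The exons of Slc3a1 overlap Prepl on the other strand over 601 of 2271 bases, and reads there cannot be told apart with an unstranded kit. The Slc7a9 to Slc3a1 count ratio overlapped between the groups, at 0.716 to 1.01 in adenomas and 0.650 to 0.896 in wild type, with a log2 difference of 0.21 (exact two-sided permutation p = 0.179, adjusted 0.214).

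Slc7a8 (ENSMUSG00000022180, chromosome 14, 54722209 to 54781946, minus strand), the basolateral exchanger of neutral amino acids, had 10.4, 16.6, 17.7, 7.52 and 7.41 CPM in adenomas 1 to 5, against 155, 131 and 156 CPM in wild type 1 to 3. Every adenoma was far below wild type, and here adenoma 2 was the second highest adenoma. Slc7a8 fell by a log2 fold change of -3.63 ± 0.31 (edgeR adjusted p = 6.13e-05), or -3.79 without adenoma 2 (adjusted p = 7.97e-05), and it kept its call and direction in each of the 20 alternative fits, as did Slc3a2.

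The adenomas differed from each other more for the 4 brush border genes than for the others. The SD of log2 CPM over the 5 adenomas was 2.70 for Slc6a19, 1.90 for Slc7a9, 1.77 for Slc3a1 and 1.37 for Slc6a20a, against 0.60 for Slc7a8 and 0.17 to 0.42 for the growth-linked genes. The median SD of all genes tested was 0.26 over the adenomas. That spread came largely from adenoma 2. Without it the SD was 0.64 for Slc6a19, 0.23 for Slc7a9, 0.35 for Slc3a1, 0.66 for Slc6a20a and 0.58 for Slc7a8, 0.47 for Slc38a1 and 0.07 to 0.12 for the other growth-linked genes, with a median of 0.16 over the genes tested that have a symbol. Adenoma 3 was the highest adenoma for all 5 absorptive genes, and it also had the highest enterocyte marker sum. The part of enterocyte content in these differences was not tested.

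Set against the sum of the 8 enterocyte markers, the genes parted. Those markers did not move alike, with a median log2 fold change of -1.46. Sis was at -3.32, near the -3.47 of Slc6a19, and Alpi at 1.19. The levels below thus depend on which markers are summed. Slc6a19 was at 3.52 to 10.9 CPM for every 1000 CPM of enterocyte markers in adenomas and at 32.4 to 35.9 in wild type, and the groups did not overlap. Slc7a8 was at 0.796 to 1.24 in adenomas 1, 3, 4 and 5 and at 4.84 to 6.63 in wild type, but at 41.5 in adenoma 2, where the marker sum was lowest. Slc7a9, at 4.20 to 6.45 in adenomas and 5.12 to 7.43 in wild type, overlapped, also without adenoma 2, where its highest value was 5.38. Slc3a1 was at 5.31 to 5.76 in adenomas 1, 3, 4 and 5, all below the 7.20 to 8.73 in wild type, and at 9.03 in adenoma 2, above it. Slc6a20a was at 2.62 to 4.13 in adenomas 1, 3, 4 and 5 and at 10.6 in adenoma 2, against 3.35 to 6.41 in wild type, and overlapped either way. Of the enterocyte markers themselves, Sis and Vil1 fell and the other 6 did not pass the test. Those called lower were 25.0%, against 27.8% of all genes. Without overlap, 6 of the 8 were lower, as were 27.6% of all genes tested. Without adenoma 2 the list had 7 lower and 1 higher, with 6092 lower and 6184 higher over all genes.

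Among 11622 named genes averaging 5 CPM or more, the transcription factor gene Hnf4g and the tight junction gene Cldn15 were among the 3 most like Slc6a19 in log2 CPM over the 8 libraries, each with a Pearson r of 0.997. Cldn15 was at 111 ± 53.4 CPM in adenomas and 401 ± 52.7 CPM in wild type. Without adenoma 2 Hnf4g ranked 36 and Cldn15 ranked 50, and with the group means taken out they ranked 2 and 11; both checks were chosen after the data were seen. These libraries share the split into 2 groups and adenoma 2, so r is a description.

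For Slc7a5 the genes most alike over the 8 libraries were Rsl1d1, Wdr77 and Xpo5, with r of 0.997, 0.996 and 0.996. Rsl1d1, a nucleolar protein gene, was at 89.2 ± 5.57 CPM in adenomas and 51.7 ± 12.7 CPM in wild type. Wdr77, which encodes a partner of the arginine methyltransferase Prmt5, was at 54.6 ± 1.48 CPM in adenomas and 40.1 ± 5.99 CPM in wild type. Xpo5, an exporter of microRNA precursors from the nucleus, was at 66.1 ± 1.52 CPM in adenomas and 47.8 ± 7.46 CPM in wild type. Their log2 fold changes of 0.79, 0.45 and 0.47 are given as a description, since genes chosen for their likeness to Slc7a5 had to differ between the groups. Without adenoma 2 they ranked 6, 3 and 2, and with the group means taken out 7, 8 and 12.

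Beyond the 10, a list of 33 other amino acid transporters had 28 members tested, of which 7 rose, 8 fell and 13 did not pass, with a median log2 fold change of 0.11 against 0.04 for all genes. These shares, 25.0% and 28.6%, are near the 30.3% and 27.8% of all genes, and without adenoma 2 the counts were 9 and 9. Slc1a4, a relative of Slc1a5 that carries serine and alanine, was at 66.7 ± 10.9 CPM in adenomas and 11.7 ± 2.11 CPM in wild type (log2 fold change 2.51 ± 0.18, edgeR adjusted p = 2.41e-05). The glycine transporter Slc6a9 was at 18.8 ± 0.509 CPM in adenomas and 5.38 ± 0.136 CPM in wild type (1.80 ± 0.09, adjusted p = 7.57e-06), with very little spread in either group. Slc43a2, a basolateral carrier of branched-chain and aromatic amino acids, was at 54.8 ± 22.8 CPM in adenomas and 569 ± 22.5 CPM in wild type (-3.37 ± 0.31, adjusted p = 6.91e-05).

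Other members of that list were picked after their values were seen. The basolateral aromatic amino acid carrier Slc16a10, at 37.1 ± 11.5 CPM in adenomas and 235 ± 37.6 CPM in wild type, fell like Slc43a2 and Slc7a8, and so did the proton-coupled carrier Slc36a1, at 22.7 ± 9.06 CPM in adenomas and 185 ± 34.8 CPM in wild type. Slc38a4, a relative of Slc38a1 and Slc38a2, had 374, 20.4, 337, 580.1 and 361 CPM in adenomas 1 to 5, against 1.20 to 1.39 CPM in wild type, the widest change of the list (7.99 ± 1.18, edgeR adjusted p = 0.00093). Adenoma 2 was the lowest adenoma for Slc38a4 and yet above all wild-type libraries. Slc6a14, a broad carrier of neutral and cationic amino acids, was at 119 CPM in adenoma 2, up to 3.96 CPM in adenomas 1, 3, 4 and 5 and up to 0.509 CPM in wild type, and did not pass.

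**Figure D4:**
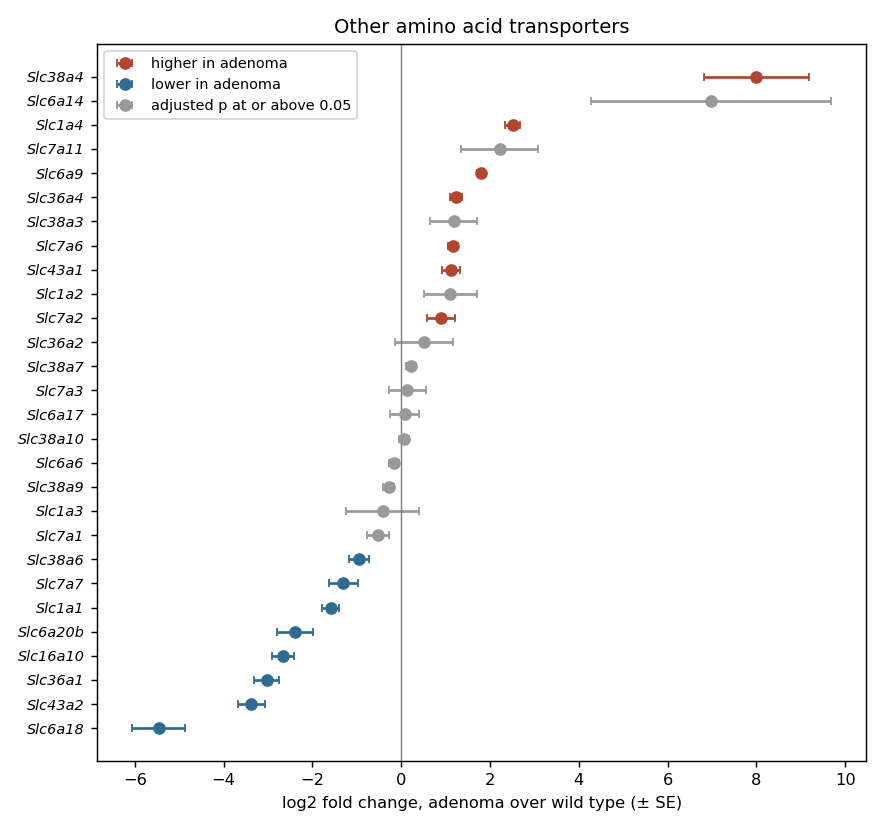
Log2 fold change, adenoma over wild type ± SE, of the 28 tested members of the list of other amino acid transporters, coloured by call at an adjusted p of 0.05. Slc38a4 stands at 7.99 at the top and Slc6a18 at -5.46 at the bottom, with 7 genes higher and 8 lower.

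Of 24 genes that respond to amino acid shortage, 12 rose and 2 fell, or 50.0% and 8.33%, against 30.3% and 27.8% of all genes, with a median log2 fold change of 0.46 against 0.04 for all genes. Without adenoma 2 the counts were 13 and 2. Ddit4, which restrains mTORC1, was at 84.0 ± 14.8 CPM in adenomas and 14.8 ± 1.71 CPM in wild type (2.51 ± 0.17, edgeR adjusted p = 1.74e-05). The transfer RNA synthetase genes Gars and Sars rose, at 0.86 and 0.74, while the stress factor gene Ddit3 fell, at 7.44 ± 0.955 CPM in adenomas and 14.4 ± 1.70 CPM in wild type. The mRNA of Atf4, the factor that drives this response mainly through its translation, was at 149.7 ± 28.7 CPM in adenomas and 146 ± 8.72 CPM in wild type. With epithelial scaling Sars was at -0.02 and Gars at 0.12, and neither passed (edgeR adjusted p of 0.912 and 0.635). Ddit4, at 1.82, and Ddit3, at -1.68, passed on that scale too.

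Of 32 genes of mTORC1 and its amino acid sensors, 6 rose and 7 fell, or 18.8% and 21.9%, against 30.3% and 27.8% of all genes, with a median of 0.04, the value of all genes. Without adenoma 2 the counts were 8 and 9. Sesn1, of the sestrins that hold mTORC1 back when leucine is short, was at 23.9 ± 5.25 CPM in adenomas and 116 ± 22.2 CPM in wild type (log2 fold change -2.27 ± 0.20, edgeR adjusted p = 5.16e-05). Castor2, of the arginine sensor family, was at 9.84 ± 3.17 CPM in adenomas and 57.3 ± 8.58 CPM in wild type. Rraga, a GTPase that brings mTORC1 to the lysosome, was at 23.4 ± 1.44 CPM in adenomas and 13.1 ± 0.795 CPM in wild type.

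Of 15 genes of glutamine and related metabolism, 7 rose and 4 fell, or 46.7% and 26.7%, against 30.3% and 27.8% of all genes, with a median log2 fold change of -0.27. Without adenoma 2 the counts were 7 and 6 and the median -0.06. Pycr1, the last step of proline synthesis, was at 18.3 ± 4.06 CPM in adenomas and 3.81 ± 0.290 CPM in wild type (log2 fold change 2.26 ± 0.20, edgeR adjusted p = 5.65e-05). The argininosuccinate lyase gene Asl rose by 0.88, and Got1, the cytosolic aspartate aminotransferase, was at 35.0 ± 8.01 CPM in adenomas and 96.9 ± 3.83 CPM in wild type.

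Of 8 transcription factor genes known to act on these transporters or in enterocytes, 1 rose and 2 fell, or 12.5% and 25.0%, against 30.3% and 27.8% of all genes, with a median log2 fold change of -0.22. Without adenoma 2 the counts were 1 and 3 and the median -0.08. Hnf4g had 102, 10.4, 135, 92.7 and 86.3 CPM in adenomas 1 to 5, against 480.1, 365 and 431 CPM in wild type 1 to 3 (log2 fold change -2.32 ± 0.62, edgeR adjusted p = 0.0138; -2.04 without adenoma 2, adjusted p = 1.01e-05). Adenoma 2 was lowest and adenoma 3 highest of the adenomas, as for the brush border genes. Hnf4a, at 460 ± 88.6 CPM in adenomas and 577 ± 16.5 CPM in wild type, did not pass (-0.33 ± 0.17, edgeR adjusted p = 0.126). Myc, at 34.0 ± 3.96 CPM in adenomas and 19.0 ± 7.92 CPM in wild type, rose (0.84 ± 0.24, adjusted p = 0.0158), but missed the threshold without wild type 2 (adjusted p = 0.0588) and with epithelial scaling, at 0.11.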

How the data were processed

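The members and all lists were chosen with earlier results of these data known. The authors deposited 1 table of raw counts for 39179 genes in 8 libraries, all assigned by column name. Per the labels' protocols, RNA came from Qiagen RNeasy columns and libraries from the unstranded TruSeq v2 kit, sequenced on a NextSeq. TopHat2, HTSeq and FastQC are named with GRCm38 per the submitters' processing notes, and their versions, the annotation and the strand setting are not given in the sources used. Reads that match several genes may go uncounted, which lowers genes with near copies.

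Symbols and positions came from GENCODE M21 (37607 identifiers matched), and promoters from RefSeq, where 7 of 10 members matched. Genes were filtered with filterByExpr, which kept 18345, scaled by TMM and tested with edgeR 4.0.16 robust quasi-likelihood fits (R 4.3.3), tested on simulated data first. CPM uses TMM library sizes, log2 CPM a prior count of 2, and the SE is the log2 fold change divided by the square root of F. A change was called at an adjusted p below 0.05. Ratios used counts plus 0.5. No pair of libraries within a group agreed within sampling noise. Confidence intervals are not given, and spread is shown as SE, SD or the range over libraries.

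Alternatives were other scalings, filters, DESeq2 1.42.0, limma-voom (limma 3.58.1), a replicate block, the sex pattern as a covariate and leaving out libraries. Named genes were the members, of each other list up to 3 called genes by smallest adjusted p and the first of the minority direction, the 3 genes most like Slc7a5 and Slc6a19, and the genes of the 6 ratios tested. Some of the genes the rule takes, and 1 of the ratios, are not reported here. Other genes, Hoxb13, Gata4, Atf4, Hnf4a and Slc6a20b among them, were chosen after their values were seen, and Apc is the targeted gene.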

Additional observations from a re-analysis of the deposited data

How the results depend on the processing

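Against 5558 genes higher and 5099 lower, epithelial scaling gave 1137 and 9486, a replicate block 3345 and 3204, and the sex pattern as a covariate 3074 and 2298; leaving out 1 library gave 4529 to 6184 higher and 4135 to 6092 lower. Of the 10 transporters, 0 were called higher with epithelial scaling (edgeR; 0 at an unadjusted p below 0.05 too, and 3 by DESeq2 or limma-voom with their own scaling), 1 with the sex covariate, and 2 to 3 with 1 library left out. The count called lower was 3 without a filter, 3 with limma-voom and 3 with the replicate block. It was 2 without wild type 1 and adenoma 5 and 2 with the sex covariate. Over all genes, 5332 were called lower without a filter, 5218 with limma-voom and 3798 without wild type 1 and adenoma 5. With 1 library left out, 3 to 6 transporters were called lower, 3 without wild type 1 or wild type 3 and 6 without adenoma 2. The sex covariate rests the comparison on adenoma 1 alone. Slc1a5 (-0.14), Slc38a1 (-0.27), Slc38a2 (-0.24) and Sars (-0.021) changed sign with epithelial scaling; the cause was not tested. The other transporters called higher were 3 with epithelial scaling (6 to 10 with 1 library left out), and those called lower were 5 with the sex covariate (8 to 9). The Slc38a1 to Slc38a2 difference ran from -0.17 to 0.13, changing sign to 0.13 and 0.07 without adenoma 2 or 3, and to 0.09 and 0.06 without wild type 2 or 3. Same-numbered libraries did not deviate together (r of -0.02, 0.05 and 0.06), so the numbers were not taken as pairs. With the replicate block Slc7a5, Slc3a2, Slc1a5, Slc6a20a and Slc7a8 passed (adjusted p of 0.0324, 0.00765, 0.0301, 0.0499 and 0.00237). Over 20 alternatives Slc7a5 lost its call in 1, Slc1a5 in 2, Slc38a2 in 8, Slc6a19 in 4, Slc6a20a in 5 and Slc3a1 in 11, and Slc7a9 gained one in 5. Adenoma 2 gave 30 counts of Slc6a19, where counting error is largest.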
